A study of Mus musculus with 11 samples.

Results

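The gene set described here is the enzymes that build very long chain fatty acids and turn them into wax: the elongases Elovl1, Elovl2, Elovl3, Elovl4, Elovl5, Elovl6 and Elovl7, the fatty acyl-CoA reductases Far1 and Far2, and the wax alcohol acyltransferase Awat1. These are 10 of the 19965 endogenous probes, 1 probe for each gene. The set was chosen by name and from measured values, because Elovl4 and Far2 stood far above background in a single region, Pdpn-adjacent region 11. Their levels in that region are therefore a description and carry no test.

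The regions came from the mammary gland of naive periostin lineage-tracing mice, in which ZsGreen marks cells of the periostin lineage. Barcoded probes on sections of fixed, frozen gland from 3 mice were released by light from the ZsGreen-positive segments and counted. The Pdpn-adjacent group holds 6 regions (2, 3, 4, 7, 8 and 11), placed near podoplanin staining of lymphatic vessels, and the SMA-adjacent group holds 5 regions (1, 5, 6, 9 and 10), placed near smooth muscle actin staining of ducts and blood vessels. All regions share the reporter and the untreated state, and the question was how periostin-lineage cells differ between these surroundings. The age of the mice and the driver of the reporter are not given in the sources used here. A segment can hold several cell types, so in each value fewer cells of a type and less RNA per cell cannot be told apart. Which mouse gave which region is not labelled. With 5 or 6 regions a group from 3 mice, some of them must come from the same animal. The p-values over regions can therefore be too small or too large.

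Fatty acids are lengthened in the endoplasmic reticulum by a cycle in which an elongase performs the first, rate-limiting condensation and shared enzymes carry out the later reductions and dehydration. The elongases differ in the chains they accept: Elovl6 extends the products of fatty acid synthase, Elovl2 and Elovl5 act on polyunsaturated chains, Elovl1, Elovl3 and Elovl7 on saturated and monounsaturated ones, and Elovl4 makes the longest chains of skin, retina, brain and testis. Far1 and Far2 reduce acyl-CoA to fatty alcohols, which enter ether lipids or are joined to a further acyl chain by wax synthases such as Awat1. In mouse skin, sebaceous and meibomian glands are rich in such waxes, and the epidermal barrier depends on ceramides with Elovl4 products.

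The promoter windows of the 3 members with the highest counts in region 11 are shown because these genes carry the pattern. Each window is the 250 bases before the start site, 5′ to 3′ on the gene's strand, from RefSeq on GRCm38.p6, with every match to a searched motif in capitals.
Elovl4: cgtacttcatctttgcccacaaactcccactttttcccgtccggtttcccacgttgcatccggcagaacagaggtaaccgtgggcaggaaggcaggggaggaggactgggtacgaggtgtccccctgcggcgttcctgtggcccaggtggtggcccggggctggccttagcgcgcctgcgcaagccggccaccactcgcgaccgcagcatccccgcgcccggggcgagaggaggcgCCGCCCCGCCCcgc
Far2: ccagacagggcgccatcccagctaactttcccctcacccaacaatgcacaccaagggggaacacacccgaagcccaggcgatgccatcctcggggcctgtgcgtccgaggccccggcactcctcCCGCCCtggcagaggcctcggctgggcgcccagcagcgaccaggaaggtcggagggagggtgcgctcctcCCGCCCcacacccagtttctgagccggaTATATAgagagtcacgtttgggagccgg
Elovl5: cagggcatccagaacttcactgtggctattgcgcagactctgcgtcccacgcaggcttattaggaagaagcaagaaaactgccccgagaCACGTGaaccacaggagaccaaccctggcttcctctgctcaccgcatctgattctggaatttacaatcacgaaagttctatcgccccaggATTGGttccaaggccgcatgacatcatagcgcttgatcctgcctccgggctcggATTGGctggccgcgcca
The Elovl4 window lies at chr9:83806306-83806555 on the minus strand, that of Far2 at chr6:148047166-148047415 on the plus strand and that of Elovl5 at chr9:77917115-77917364 on the plus strand. The motifs searched, on both strands, were the E-box CACGTG, the CCAAT box, the GC box with the letters GGGCGG, the cyclic AMP response element TGACGTCA and the TATA box written TATATA. The Elovl4 window held 2 matches to the GC box on its opposite strand, overlapping by a base and beginning at -14 and -9 from the start site. The Far2 window held 2 matches to the GC box at -126 and -56 and 1 match to the TATA box at -28. The Elovl5 window held 1 match to the E-box at -161 and 2 to the CCAAT box at -71 and -17, and none to the GC box. Of the 32851 promoter windows of that length, 32.7% held the GC box, 33.8% the CCAAT box, 6.02% the E-box, 5.25% the TATA box and 1.55% the cyclic AMP element. No searched motif was thus in all 3 windows. They had GC contents of 69.6% for Elovl4, 67.2% for Far2 and 55.6% for Elovl5, against a median of 52.4% over all windows, while the Awat1 window held no CpG and no match to any of the 5 motifs. In all, 9 of the 10 members had a window.

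Depth differed widely. The Pdpn-adjacent regions held total counts of 22757 to 2271664, and the SMA-adjacent regions 760761 to 3086323. Region 11 held 30316 counts and regions 2 and 3 held 22757 and 81760, so the shallowest regions are all Pdpn-adjacent, and shallowness and group cannot be told apart there. The deposited counts never fall below 1: in region 11, 15487 of 19965 endogenous probes (77.6%) and 178 of 210 negative-control probes stood at 1, and the highest negative probe stood at 3. Of the genes behind the labels, Pdpn stood at 0.375 to 1.79 times background in Pdpn-adjacent regions and 1.56 to 1.95 times in SMA-adjacent regions, Acta2 (smooth muscle actin) at 0.952 to 10.0 and 12.9 to 87.5 times, and Postn at 0.889 to 4.09 and 1.84 to 5.13 times, so Pdpn transcripts did not separate the groups. Postn exceeded every negative probe in Pdpn-adjacent region 8 and SMA-adjacent regions 1 and 10. In region 11 itself Pdpn and Postn were at the lowest value, 1, and Acta2 at 2. Background here is the geometric mean of the 210 negative-control probes of a region, 1.12 counts in region 11, and CPM is the count per 1000000 endogenous counts of the region, with an exact Clopper-Pearson 95% interval that covers counting error only.

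Among the elongases, Elovl4 set region 11 apart. Its probe (chr9:83790096-83790131, GRCm38.p6, inside the gene) had 182 counts there, 6003 CPM (interval 5165 to 6939) and 162 times background, the second highest of the 19965 probes in that region. In the other Pdpn-adjacent regions it had 1 count in region 2, 8 in region 3, 106 in region 4, 10 in region 7 and 13 in region 8, between 43.1 and 97.8 CPM, and in the SMA-adjacent regions 51.3, 58.6, 48.8, 36.9 and 29.8 CPM in regions 1, 5, 6, 9 and 10. All 10 other regions lay at 0.952 to 3.00 times background, and outside region 11 the groups overlapped. Without region 11, Elovl4 averaged 55.2 ± 23.9 CPM in Pdpn-adjacent regions and 45.1 ± 11.6 CPM in SMA-adjacent regions (SD, n = 5 each).

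Elovl5, which extends polyunsaturated chains, was the elongase with the next highest count in region 11. It had 28 counts there, 924 CPM (interval 614 to 1335) and 24.9 times background. The other Pdpn-adjacent regions had 132, 147, 93.3, 97.4 and 26.5 CPM in regions 2, 3, 4, 7 and 8, against 76.2, 90.1, 86.4, 78.8 and 81.8 CPM in SMA-adjacent regions 1, 5, 6, 9 and 10. Region 11 was the highest and region 8, also Pdpn-adjacent, the lowest of all 11, so the SMA-adjacent values fell inside the Pdpn-adjacent range. The SMA-adjacent regions were close together, at 82.7 ± 5.61 CPM (SD, n = 5).

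Elovl6, the elongase that follows fatty acid synthase, was the member detected most widely. Its Pdpn-adjacent values were 87.9, 171, 212, 274, 226 and 461.8 CPM in regions 2, 3, 4, 7, 8 and 11, against 103, 190, 221, 149 and 174 CPM in SMA-adjacent regions 1, 5, 6, 9 and 10. Relative to background these were 1.90 to 12.5 times in Pdpn-adjacent regions, with a median of 7.48, and 3.45 to 7.05 times in SMA-adjacent regions, with a median of 5.28. Region 11 had the highest value, with 14 counts and an interval of 252.5 to 775 CPM, which takes in the 274 CPM of region 7. Elovl6 thus did not single out region 11 as Elovl4 did.

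The remaining elongases were low, at no more than 3.27 times background in any region. In region 11, Elovl1 had 2 counts, Elovl2 and Elovl3 had 3 counts each and Elovl7 had 1, none of them above the highest negative probe. Elovl1 lay at 1.78 to 3.19 times background in Pdpn-adjacent regions and 2.27 to 3.27 times in SMA-adjacent regions, Elovl2 at 0.952 to 2.67 and 1.45 to 2.30 times, and Elovl3 at 0.894 to 2.67 and 0.685 to 1.35 times. Elovl3, an elongase of mouse sebaceous gland and brown fat, did not exceed the highest negative probe in any region. Elovl7 lay at 2.33 to 2.86 times background in Pdpn-adjacent regions 2, 3, 4, 7 and 8 and at 0.889 times in region 11, against 2.52, 2.34, 2.30, 1.69 and 1.42 times in SMA-adjacent regions 1, 5, 6, 9 and 10. It was the elongase whose Pdpn-adjacent values other than region 11 were mostly at the upper end of the SMA-adjacent ones.

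Of the reductases, Far2 was high in region 11 and Far1 was not. The Far2 probe (chr6:148146042-148146077) had 32 counts in region 11, 1056 CPM (interval 722 to 1490) and 28.5 times background, which ranked 24 of 19965 there. It had 1, 3, 49, 4 and 8 counts in Pdpn-adjacent regions 2, 3, 4, 7 and 8, which is 17.7 to 43.9 CPM, and 13.1, 23.7, 24.9, 20.6 and 24.3 CPM in SMA-adjacent regions 1, 5, 6, 9 and 10. In all 10 regions other than region 11, Far2 was at or under 1.13 times background. Far1 (chr7:113547469-113547510), the reductase best known from ether lipid synthesis, had 43.9, 12.2, 36.5, 35.4, 63.0 and 33.0 CPM in Pdpn-adjacent regions 2, 3, 4, 7, 8 and 11, against 44.7, 33.7, 33.7, 49.4 and 42.3 CPM in SMA-adjacent regions 1, 5, 6, 9 and 10. It had a single count in region 11, with an interval of 0.835 to 184 CPM. That count is the lowest value of the table, so the interval may not describe counting error. Far2 was chosen for its level in region 11, so the 2 reductases cannot be compared there by their intervals. Each also rests on 1 probe with its own efficiency. The Far1 probe also overlaps the antisense gene Far1os, and the sources used here do not say whether counts tell the strands apart.

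The wax synthase Awat1, on the X chromosome (probe at chrX:100573858-100573893), had 9 counts in region 11, 297 CPM (interval 136 to 563) and 8.00 times background. The other Pdpn-adjacent regions had 43.9, 85.6, 47.5, 48.7 and 26.5 CPM in regions 2, 3, 4, 7 and 8, and the SMA-adjacent regions 40.7, 59.3, 56.1, 38.6 and 38.1 CPM in regions 1, 5, 6, 9 and 10. Region 11 was again the highest, on few counts, and the remaining regions of both groups overlapped at 0.952 to 2.63 times background.

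**Figure D1:**
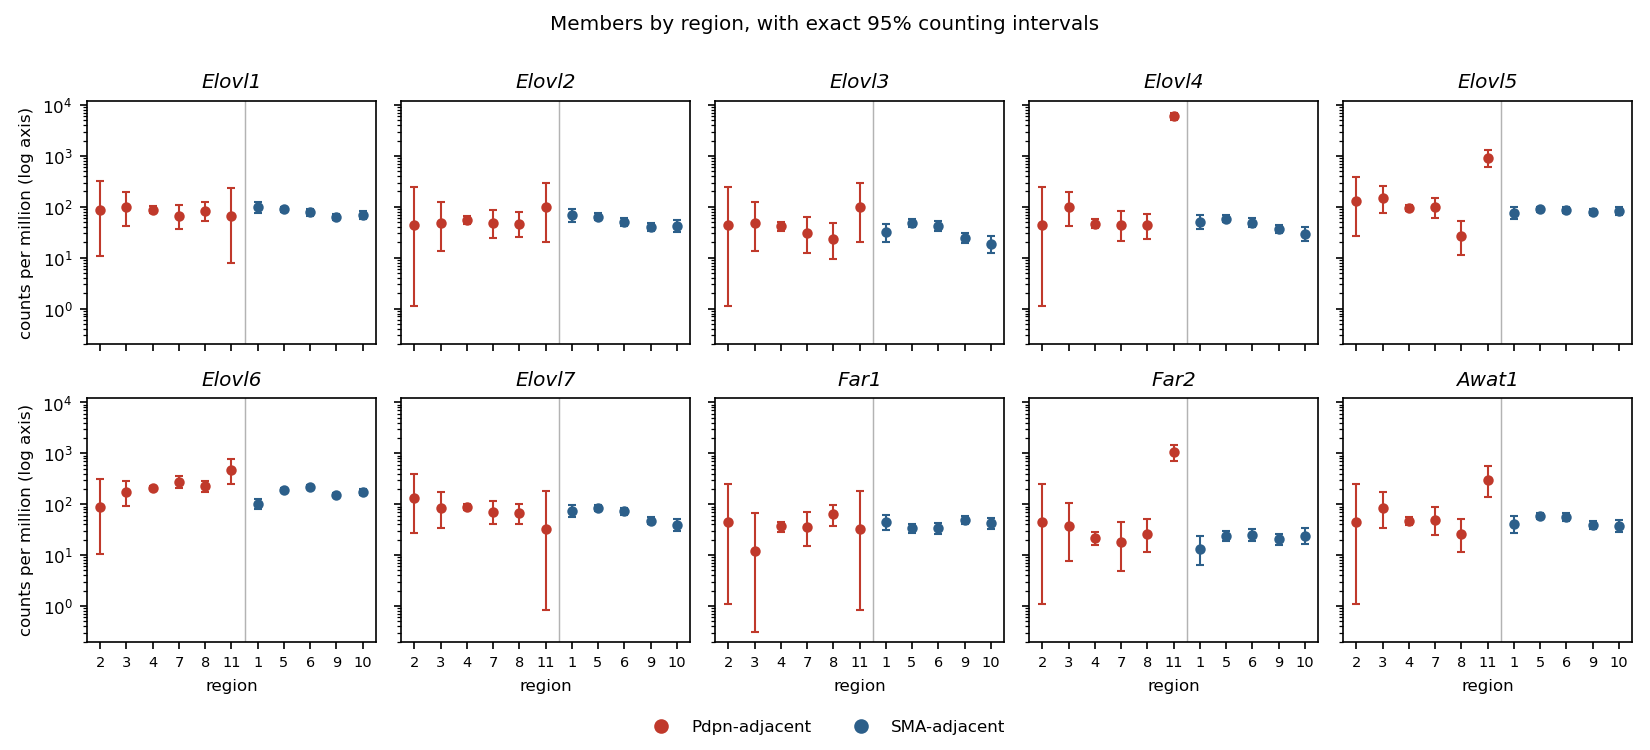
Level in CPM (log axis) of the 10 members in each region, with Pdpn-adjacent regions to the left of SMA-adjacent regions; points are single regions and bars are exact 95% counting intervals. Elovl4 at 6003 CPM and Far2 at 1056 CPM in region 11 lie above every other region, while Elovl1, Elovl7 and Far1 are not high there.

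Across the set, 5 of 10 members in region 11 exceeded every negative probe (Elovl4, Far2, Elovl5, Elovl6 and Awat1), where 4.13% of all endogenous probes did. Leaving aside Elovl4 and Far2, for which the set was chosen, it was 3 of the 8 others. In 7 of 10 members, all but Elovl1, Elovl7 and Far1, region 11 had the highest level over background of the 11 regions; leaving aside Elovl4 and Far2 it was 5 of 8, beside 7.96% of all probes. Elsewhere Elovl6 exceeded every negative probe in regions 4, 7 and 8 of the Pdpn-adjacent group, where 2.38%, 4.07% and 5.46% of all probes did, and in regions 5, 6, 9 and 10 of the SMA-adjacent group, where 2.17%, 3.24%, 7.71% and 9.57% did. Elovl5 joined it in region 10 and stood with Elovl7 in region 2 (2.04% of all probes), each at 3 counts there. No member did so in regions 3 and 1, where 0.841% and 3.32% of all probes did. Against a lower floor, the mean plus 2 SDs of the log2 negative probes, 8 members passed in region 11, where 22.4% of all probes and 15.2% of the negative probes passed too, since 2 counts sufficed.

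**Figure D2:**
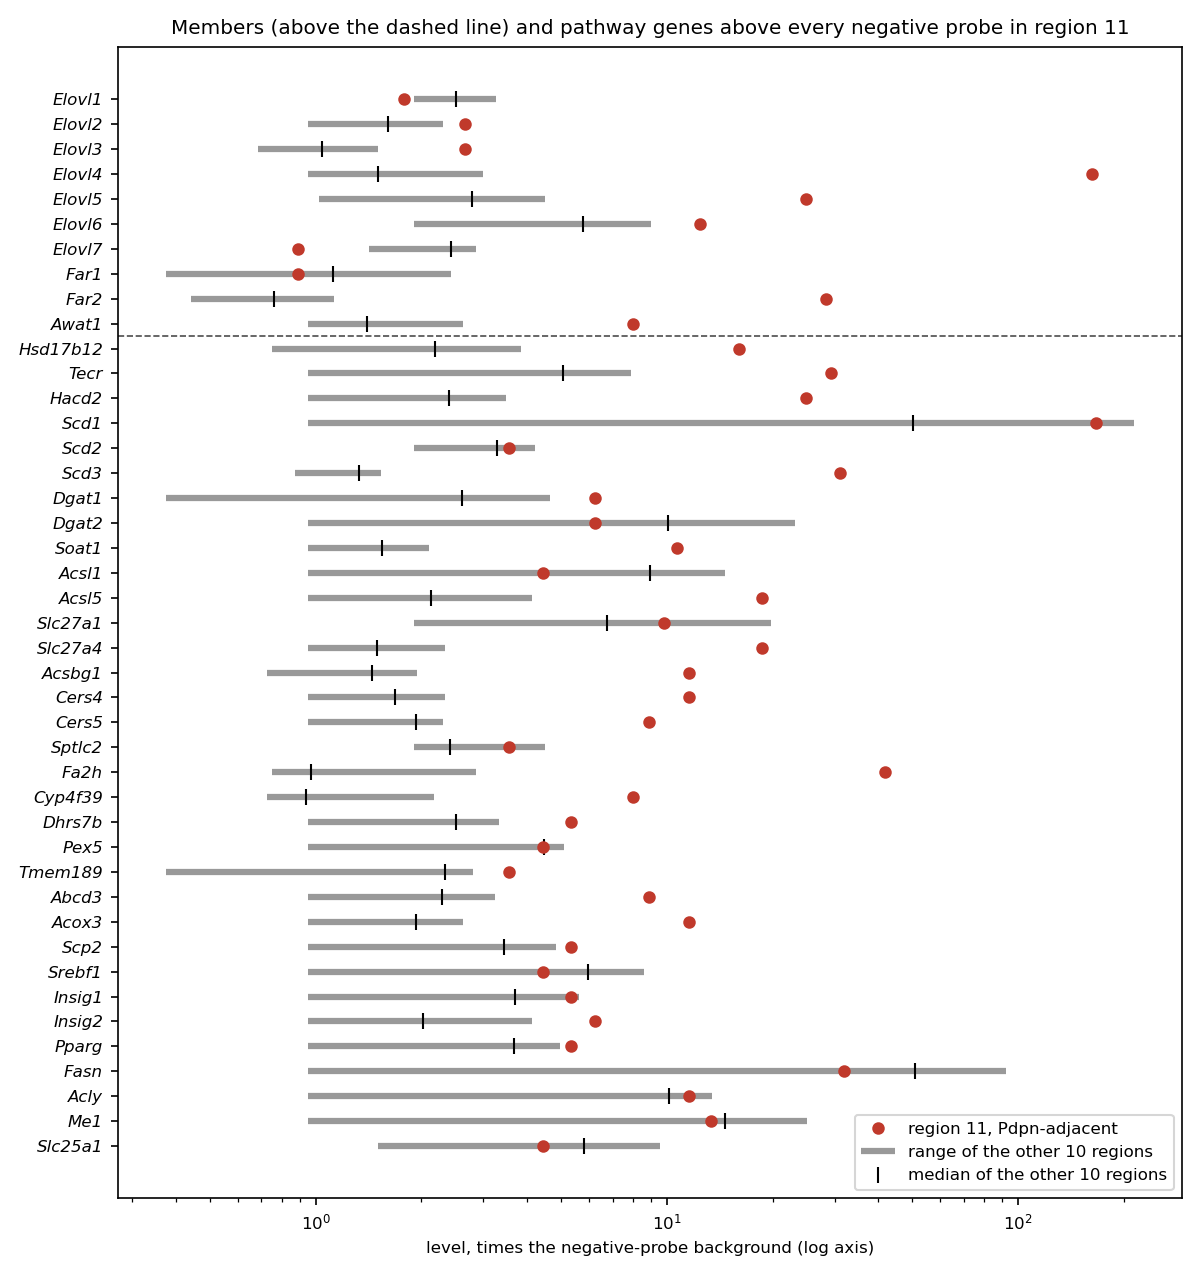
Level in times the negative-probe background (log axis) of the members, above the dashed line, and of the pathway genes above every negative probe in region 11; red points are region 11, grey bars the range of the other 10 regions and black ticks their median. Elovl4 and Far2, like Fa2h, Scd3 and Hacd2, lie far to the right of their grey bars, whereas Scd1 and Fasn lie within theirs.

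Between the groups, none of the members passed the test. In the edgeR quasi-likelihood fit over all 11 regions, 0 of the 8 members tested had a Benjamini-Hochberg adjusted p under 0.05, beside 0.01% of all 19935 probes tested (2 higher and 0 lower in Pdpn-adjacent regions). At an unadjusted p under 0.05 the fit held 566 higher and 636 lower probes and none of those 8 members, and neither DESeq2 nor limma-voom called a member. The largest log2 fold changes, Pdpn-adjacent over SMA-adjacent, were 0.60 ± 0.43 for Elovl5 (SE; 95% interval -0.28 to 1.49; adjusted p = 0.950), 0.47 ± 0.33 for Elovl6 (-0.21 to 1.14; adjusted p = 0.949) and 0.31 ± 0.20 for Elovl7 (-0.10 to 0.73; adjusted p = 0.927). The 5 others lay between -0.08 for Far1 and 0.16 for Elovl3, each with an adjusted p of 1.00. Elovl5 and Awat1 leaned on the method, with 1.43 and 0.65 by DESeq2, and Elovl5 had 0.04 by limma-voom and 1.01 without region 8. As values only, Elovl4 had 4.16 and Far2 0.71 in this fit; limma-voom gave 0.55 for Elovl4, and Far2 had 3.18 by DESeq2 and 1.78 without region 4. These p-values treat regions that share a mouse as independent, and can be too small or too large.

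Elovl4 and Far2 were tested without region 11. The log2 fold change of Elovl4 was then 0.07 ± 0.20 (SE; 95% interval -0.33 to 0.48; adjusted p = 1.00 by edgeR) and that of Far2 -0.02 ± 0.20 (-0.43 to 0.39; adjusted p = 1.00 by edgeR). So the higher Pdpn-adjacent value of Elovl4 over all 11 regions rested on region 11. Elovl5 moved to 0.00 ± 0.24 (-0.50 to 0.50) and Awat1 to -0.07 ± 0.20 (-0.48 to 0.33), while Elovl6 kept 0.31 ± 0.31 (-0.33 to 0.95) and Elovl7 0.34 ± 0.20 (-0.08 to 0.76). No member was called, beside 0.00501% of 19965 probes, and none had an unadjusted p under 0.05. The median log2 fold change was 0.12 over the 8 members other than Elovl4 and Far2 with all regions, beside 0.01 over all probes, and 0.03 over the 10 members without region 11, beside 0.01. The intervals leave room for group differences of up to about the sizes named, and shared mice can again shift the p-values in either direction.

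A test that gives every region the same weight gave no call either. On the log2 level over background, exact two-sided permutation tests over all splits of the 11 regions gave p = 0.379 to 0.788 for the 8 members tested, with 0 of 19965 probes past an adjusted p of 0.05 (1166 probes, 5.84%, had an unadjusted p under 0.05). Without region 11 (smallest possible p 0.00794), Elovl4 had an exact permutation p of 0.738 and Far2 of 0.294. Elovl7 then averaged 1.38 ± 0.11 in Pdpn-adjacent regions and 1.01 ± 0.36 in SMA-adjacent regions on that log2 scale (SD, n = 5 each). Its exact permutation p without region 11 was 0.0238, or 0.918 after adjustment over all probes. In that comparison 4.95% of all probes had an unadjusted p under 0.05. The region left out was the lowest for Elovl7, and over all 11 regions its exact permutation p was 0.762. No member had non-overlapping groups, with or without region 11, beside 0.12% of probes with all Pdpn-adjacent regions above and 0.446% with all below when every region was used, and 0.19% and 0.536% without region 11. Regions of a shared mouse enter these tests as independent too.

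**Figure D3:**
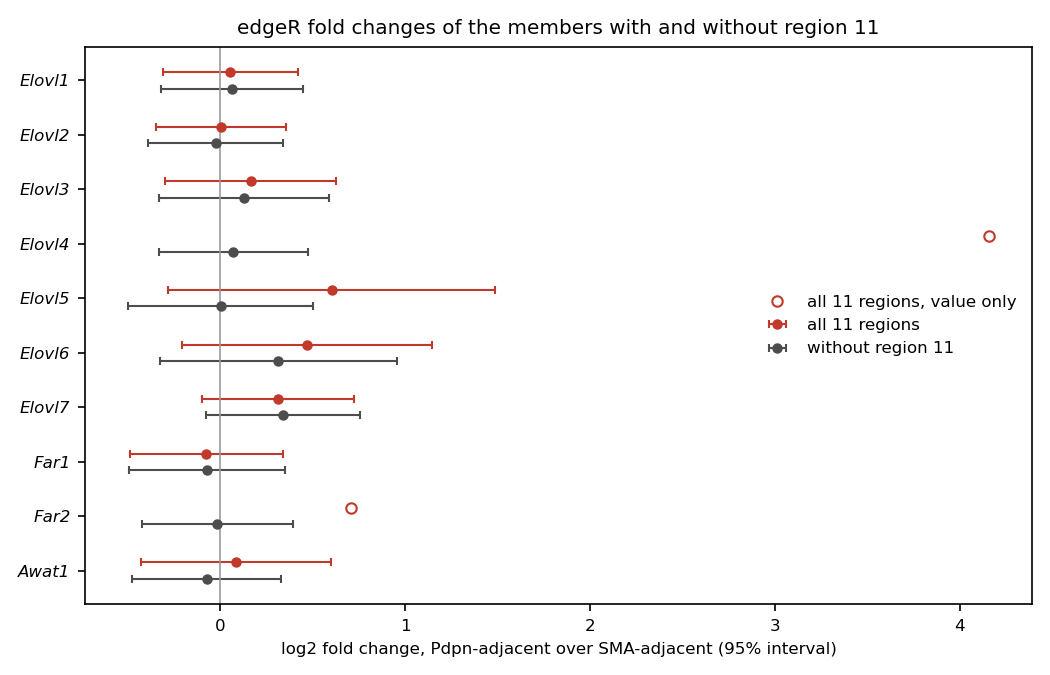
Log2 fold changes, Pdpn-adjacent over SMA-adjacent, of the 10 members from edgeR with all 11 regions (red) and without region 11 (grey); bars are 95% intervals, and open red circles give Elovl4 and Far2 as values without a test. Elovl4 lies at 4.16 with all regions and at 0.07 without region 11.

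The other genes of the pathway were taken from 8 lists of 92 genes. Between the groups 0 of 92 were called by edgeR, higher or lower, and 2 had an unadjusted p under 0.05: Slc27a6, a fatty acid transporter with acyl-CoA synthetase activity, at a log2 fold change of 0.36 ± 0.16 (SE; adjusted p = 0.765), and Cyp4f39, which hydroxylates the ends of very long chains for barrier ceramides, at 0.54 ± 0.24 (SE; adjusted p = 0.778). The smallest p of the elongation partners was that of Tecr, the last reductase of the cycle, at 0.72 ± 0.46 (edgeR adjusted p = 0.927). In the other lists the genes of smallest p were Scd3 at 0.58, Awat2 at 0.18, Acss2 at 0.23, Scp2 at -0.39 and Nr1h2 at -0.37, with edgeR adjusted p of 0.927 to 1.00. List medians ran from -0.17 for fatty acid synthesis to 0.14 for the acyl-CoA synthetases, near the 0.01 of all probes. Without region 11, Scd3 reversed to -0.17, and the partner and acyltransferase of smallest p were Hsd17b12 at -0.26 and Soat1 at -0.16. Slc27a6 then had 0.37, Cyp4f39 0.39, Acss2 0.29, Scp2 -0.47 and Nr1h2 -0.36, each with its sign kept. Shared mice can shift these p-values in either direction as well.

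Within region 11, 3 of the 7 partners that complete the elongation cycle exceeded every negative probe, beside 4.13% of all probes. In SMA-adjacent region 10 it was also 3 of 7, beside 9.57% of all probes. Tecr had 33 counts, 29.4 times background, against 0.952 to 7.92 times in the other regions. Hacd2, a dehydratase of the cycle, had 28 counts, 24.9 times background, against at most 3.49 times elsewhere, and Hsd17b12, its ketoacyl reductase, had 18 counts, 16.0 times background, against at most 3.83 times elsewhere. Of the others, Hacd3 had 3 counts, and Tecrl, Hacd1 and Hacd4 were at the lowest value.

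Genes of barrier and gland lipids were uneven in region 11. Fa2h, which hydroxylates fatty acids of ceramides, had 47 counts, 41.8 times background, against 0.750 to 2.86 times in the other 10 regions, and Cyp4f39 had 9 counts, 8.00 times background. Slc27a4, a fatty acid transporter of the epidermis, had 21 counts, 18.7 times background, against at most 2.33 times elsewhere. Cers3, Abca12, Alox12b, Aloxe3 and Pnpla1, which serve the cornified barrier, all stood at the lowest value, 1. Scd3, a stearoyl-CoA desaturase of mouse sebaceous gland, had 35 counts, 31.1 times background, against at most 1.53 times elsewhere, and Soat1, which esterifies cholesterol, had 12 counts, 10.7 times background. In all, 33 of 92 listed genes (35.9%) exceeded every negative probe, from 5 of 20 ceramide and barrier genes to 4 of 7 genes of fatty acid synthesis, beside 4.13% of all probes. Such counts were not particular to region 11. In SMA-adjacent region 10 (9.57% of all probes) 6 of 7 genes of fatty acid synthesis and 3 of 20 ceramide and barrier genes did so. In Pdpn-adjacent region 7 (4.07% of all probes) it was also 6 of 7 and 3 of 20. Region 11 had the highest level of the 11 regions for 27 of the 92, beside 7.96% of all probes.

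General fatty acid synthesis did not set region 11 apart. Scd1, the main stearoyl-CoA desaturase, had the highest count of the region, 187, or 166 times background, but the other regions reached 213 times. Fasn, the fatty acid synthase, had 36 counts, 32.0 times background, against up to 92.4 times elsewhere, and no gene of that list was highest in region 11. Dgat2, which makes triacylglycerol, had 7 counts, 6.23 times background, against up to 23.1 times elsewhere.

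The probes of highest level in region 11 show what accompanied Elovl4. Beside Scd1 and Elovl4 they included Mup13 (127 counts), a major urinary protein, Serpina3b (86 counts), a serine protease inhibitor, and Fabp5 (80 counts), the epidermal fatty acid-binding protein. Serpina3b stood at 76.5 times background against at most 1.88 times in the other regions, and Fabp5 at 71.2 times against at most 6.39. Both thus followed the pattern of Elovl4. Lrr1 (74 counts), Gm52800 (65), Cfd (62, the adipocyte protease adipsin) and LOC118568634 (59) reached higher levels over background in another region than in region 11, so they did not.

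By correlation of log2 CPM over the 11 regions, the probes most like Elovl4 included Paqr7, Serpina3b, Scd3 and Tmem164, with Pearson r of 0.996, 0.992, 0.986 and 0.983. Their Spearman rho was 0.83, 0.70, 0.66 and 0.35, and without region 11 their r was 0.90, 0.74, 0.52 and 0.51. Without the 2 regions farthest from the Elovl4 median, r was 0.64, 0.34, 0.27 and -0.25, lower in each case. Those most like Far2 included Tmem164, Nhlrc2, Olfr995 and Olfr430, at r of 0.980, 0.979, 0.978 and 0.978; Nhlrc2, Olfr995 and Olfr430 had only 3, 2 and 4 counts in region 11. Their Spearman rho was 0.51, 0.95, 0.66 and 0.62, and r was 0.58, 0.94, 0.80 and 0.67 without region 11 and 0.50, 0.91, 0.76 and 0.50 without the 2 regions farthest from the Far2 median, so for Nhlrc2 and Olfr995 much of the likeness was present in the other regions. Elovl4 and Far2 themselves had r of 0.963 and rho of 0.07 over 11 regions, and r of 0.18 and rho of -0.24 over the 10 regions without region 11. The points share depth and the lowest value of 1, and these correlations are descriptions.

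The lists of skin cell type markers had higher means in region 11 than in any other region. The mean level of the 9 sebaceous gland markers was 9.78 times background there, against 1.06 to 2.16 times in the other 10 regions, and their summed level was 3266 CPM against 382 to 611 CPM. Of the 9, 6 exceeded every negative probe, as did 4.13% of all probes, the share to set beside each such marker count here: Scd3 (35 counts), Krt79 (20, a keratin of the sebaceous duct), Acsbg1 (13), Soat1 (12), Cidea (7) and Pparg (6). Cidea and Pparg were nearly as high elsewhere. Pparg stood at 5.34 times background against up to 4.95 times, and exceeded every negative probe in 5 other regions. Cidea, also in the brown fat list below, stood at 6.23 times against 5.90 times in SMA-adjacent region 6. Awat2 had 3 counts, Dgat2l6 had 2, and the melanocortin receptor Mc5r was at the lowest value. Scd3, Acsbg1, Soat1, Pparg, Awat2 and Dgat2l6 also stand in the pathway lists above, so the marker list is not independent of them. The 11 epidermal keratinocyte markers averaged 5.90 times background against 1.04 to 1.58 times, and summed to 2408 CPM against 352 to 527 CPM. Only 3 of those 11 exceeded every negative probe, Sbsn (40 counts), Krt14 (19) and Krt10 (5), while Krt5, Krt1, Lor, Flg, Ivl, Krtdap and Dsg1a were at the lowest value. The part of these cell types in the levels of Elovl4 and Far2 was not tested.

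Markers of other cell types had the following levels in region 11. White adipocyte markers averaged 14.3 times background, with 10 of 12 above every negative probe and Cfd the highest at 62 counts, inside the 1.27 to 66.4 times of the other regions. The brown fat list averaged 1.91 times, with Ucp1 at the lowest value and 1 of 7 above every negative probe, its highest gene Cidea. Fibroblast markers averaged 2.76 times, with Col1a1 (8 counts) the highest and 4 of 10 above every negative probe. No marker of luminal epithelium (0 of 12), smooth muscle and myoepithelium (0 of 10), lymphatic endothelium (0 of 7) or blood endothelium (0 of 8) exceeded every negative probe, with list means of 1.04, 1.33, 1.14 and 1.00 times background. The lists of fast skeletal muscle, macrophages and nerve averaged 1.69, 1.45 and 1.22 times, with 2 of 10, 0 of 8 and 0 of 8 above every negative probe. At 30316 counts the markers under the highest negative probe were not detectable, which does not show that the cells were absent.

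**Figure D4:**
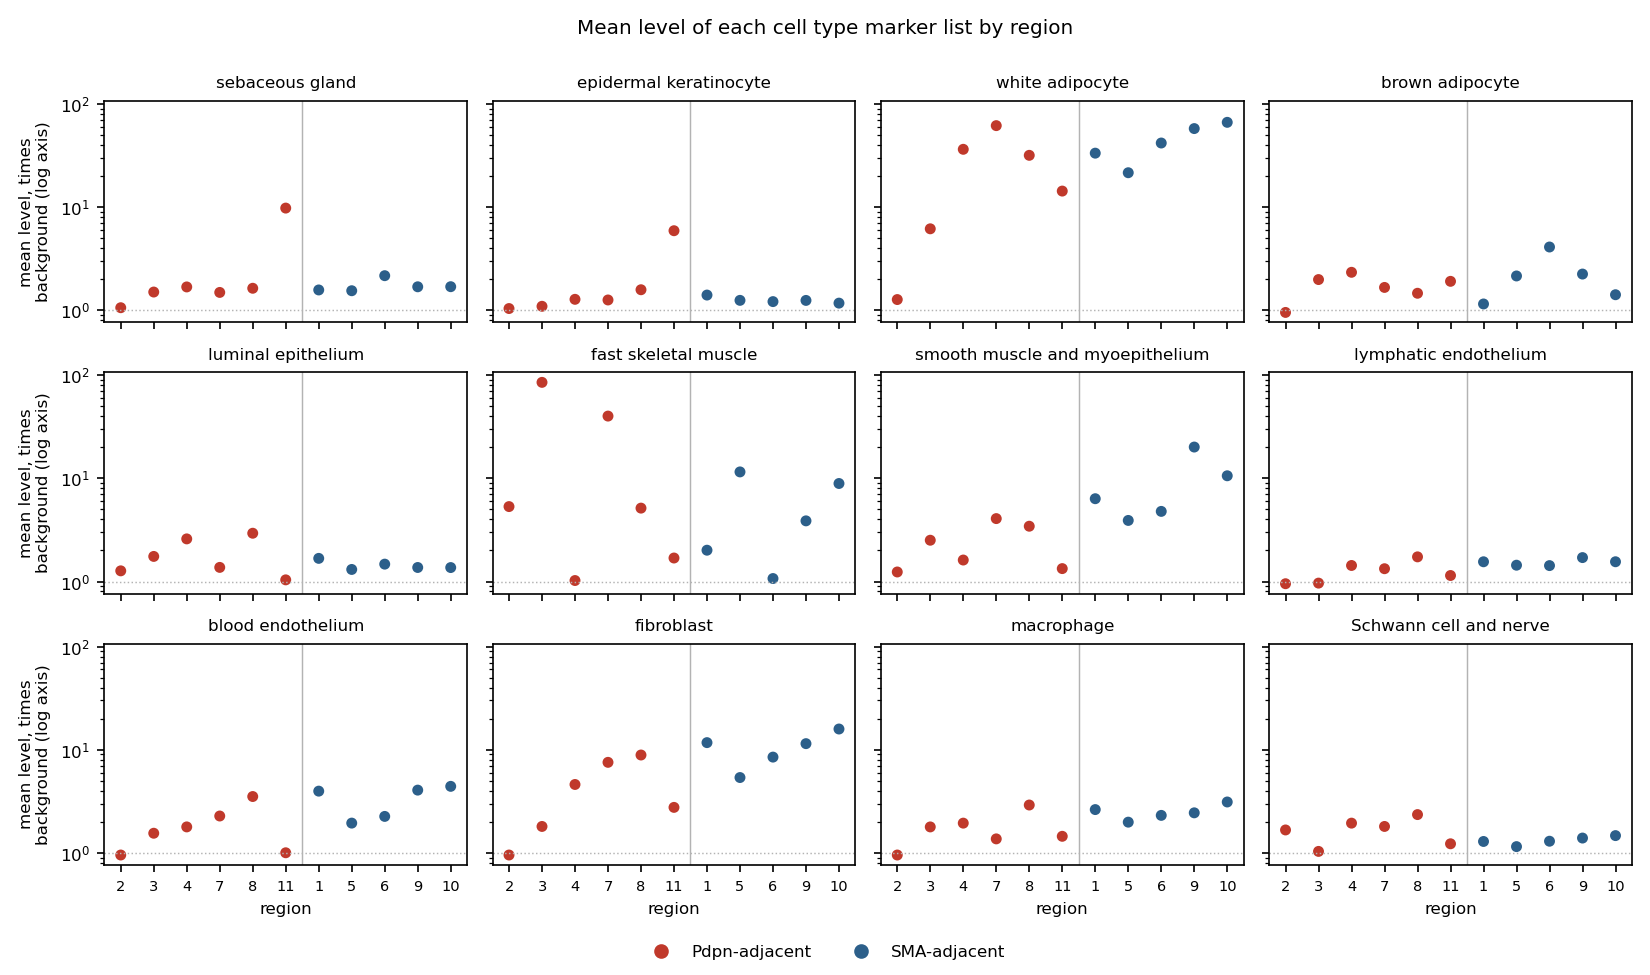
Mean level over background (log axis) of each cell type marker list in each region, 1 point a region, with Pdpn-adjacent regions (red) to the left of SMA-adjacent regions (blue) and a dotted line at background. The sebaceous gland list at 9.78 and the epidermal keratinocyte list at 5.90 in region 11 lie above all other regions, while the white adipocyte list at 14.3 lies within the range of the others.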

How the data were processed

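Sections of paraformaldehyde-fixed frozen mammary gland from 3 mice were profiled with the mouse GeoMx Whole Transcriptome Atlas, per the labels' protocols. They state that 12 areas were collected, of which 11 were analysed here. The values deposited are raw counts of each probe, which the authors did not normalize, judged from its values: whole numbers with widely differing totals. The steps from reads to counts, removal of duplicate reads included, were not stated in any source used here, and neither was whether 1 was added to each count. The file headers place the probes on GRCm38.p6.

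Counts of the 19965 endogenous probes were tested with edgeR 4.0.16 in R 4.3.3 (filterByExpr, TMM factors of 0.938 to 1.17, quasi-likelihood test, two-sided, Benjamini-Hochberg adjustment over all probes, threshold 0.05), as Pdpn-adjacent over SMA-adjacent. The standard error and interval come from the F statistic, and where edgeR's p is larger than that of F, as for Elovl4 without region 11, the larger p was adjusted. The 210 negative-control probes gave the background and were kept out of library sizes. Member CPM used totals without TMM factors, so that exact binomial intervals at 95% apply. Levels over background were compared by exact permutation over regions. DESeq2 1.42.0 and limma 3.58.1 were alternatives, with other scalings, filters and floors and with regions left out. The fit was tested on simulated data.

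The members, lists and tests were chosen with earlier results of these data known. Named genes were the members, the label genes, per pathway list the gene of smallest p, the 5 probes most like Elovl4 and Far2, the 10 highest probes of region 11 and the highest gene of each marker list; further pathway and marker genes were named after their values were seen. Not every marker list and gene that the rule names is reported here.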

Additional observations from a re-analysis of the deposited data

Results flagged for a closer look

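Single regions were compared with the rest of their group by Dixon's test on the log2 level over background. Elovl4 and Far2 were not tested in the Pdpn-adjacent group, since their region 11 values chose them. Of 58 such tests 5 passed. Chance passes about 1 in 20 independent tests, but that share cannot be set beside this count. The lists share genes and were chosen with earlier results of these data known, so their flags are descriptions. Within the Pdpn-adjacent group, Elovl7 was flagged low in region 11, at 0.889 times background, which is a single count, the lowest value of the table. Its counting interval there, 0.835 to 184 CPM, takes in the 38.8 to 132 CPM of the other 10 regions. In the same region 3 list means were far above the other Pdpn-adjacent regions. The ceramide and skin barrier list was at 4.71 times background, the sebaceous gland list at 9.78 times and the epidermal keratinocyte list at 5.90 times. Fa2h held 47 of the 106 counts of the ceramide and barrier list, with 11 of 20 genes at 1. Sbsn held 40 of the 73 counts of the keratinocyte list, with 7 of 11 genes at 1. In the sebaceous gland list Scd3 held 35 of 99 counts, with 1 of 9 genes at 1. In the SMA-adjacent group, region 6 stood above the other 4 regions for the mean of the sebaceous gland list, at 2.16 times background. Its highest gene there was Cidea, with 379 counts and 5.90 times background. Cidea is also in the brown fat list, which averaged 4.10 times background in region 6.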

How the results depend on the processing

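No paired analysis was possible because the labels give each region its own number and tie none to a mouse. No member tested passed the threshold in any edgeR, DESeq2 or limma-voom alternative, with adjusted p of 0.473 to 1.00. With 1 subtracted from every count 1 of the 92 pathway genes was called, Fa2h, against 0. Under that setting, and against the highest negative probe, 5 members were above background in region 11, against 8 at the floor used. Over all probes, the 2 higher and 0 lower calls became 12 and 41 without SMA-adjacent region 5, 12 and 1 without Pdpn-adjacent region 7, 1 and 16 with DESeq2, 0 and 0 with limma-voom and 25 and 32 with 1 subtracted. Of 184 recomputed log2 fold changes 156 kept their sign and 28 reversed; Elovl5, at 0.60 over all regions, was the largest value to reverse, and it ranged from 0.04 with limma-voom to 1.43 with DESeq2 among the other methods, and from 0.0012 to 1.01 with each region left out. Awat1 had 0.65 with DESeq2. Elovl2 reversed to -0.0030 with DESeq2 size factors, -0.027 with negative-probe scaling, -0.013 with DESeq2, -0.086 with limma-voom, -0.036 with 1 subtracted and -0.013 without regions 2, 3 and 11. Leaving out those 3 regions also gave -0.13 for Elovl5 and -0.14 for Awat1, and limma-voom gave -0.059 for Elovl1, 0.051 for Far1 and, without region 11, 0.27 for Far2, where DESeq2 gave 0.055. With each region left out in turn the ranges were -0.0088 to 0.12 for Elovl1, -0.077 to 0.087 for Elovl2, -0.022 to 0.35 for Elovl3, -0.24 to 0.14 for Far1 and -0.075 to 0.27 for Awat1, and, from the regions other than 11, -0.017 to 0.18 for Elovl4 and -0.074 to 0.18 for Far2. The cause was not tested. Depth limits region 11, where 1 count is 33.0 CPM.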
